A study of Homo sapiens with 4 samples.

Results

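AP-1 is a transcription factor made of paired leucine zipper proteins, and the transcripts of 9 of its subunit genes are described here: FOS, FOSB, FOSL1 and FOSL2 of the FOS family, JUN, JUNB and JUND of the JUN family, and ATF3 and BATF3 of the ATF and BATF families. The genes were chosen by name, with earlier results of these data known, out of 28058 gene symbols in a count table. All 9 were present. Of these, 7 passed the filter on low counts, while FOS and FOSB did not and are given as counts. The table holds 4 libraries of poly(A) RNA from cells labelled SH-SY5Y, a human neuroblastoma line, with no gene altered. In 2 of them the flasks received shock wave treatment (SWT), 300 impulses at 3 Hz and 0.08 mJ/mm2 from a distance of 7 cm in water at 37 °C, and in 2 control libraries the cells were untreated. Cells were collected 6 h after SWT. The design text of the series speaks of exosomes in place of direct treatment, and which was done cannot be told from the sources used here.

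JUN proteins bind DNA as pairs with each other or with FOS proteins, whereas FOS proteins need a JUN partner, and ATF3 and BATF3 join the same network through their own zippers. FOS, FOSB and JUN are immediate early genes: in many cell types a stimulus raises their short-lived transcripts within minutes and they decline again soon after. FOSL1 and FOSL2 tend to follow later and last longer. In neuroblastoma, AP-1 members such as FOSL1 and FOSL2 belong to the factors described for the mesenchymal cell state, which differs from the noradrenergic, neuron-like state.

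Library totals lay between 9888263 and 11686808 counts, and a gene without any count could still have a level of 0.257 to 0.303 CPM (counts scaled to a common library total), depending on the library and for counting error only. Most noradrenergic markers of the labelled cell type were low or absent. PHOX2A, TH and DBH had 0 counts in all 4 libraries, and 12 of 20 such markers stayed under 1 CPM in each, while 3 of them (HAND2, GATA2 and TBX2) reached 10 CPM in each, with HAND2 at 48.9 to 54.2 CPM. By contrast, 16 of 18 mesenchymal markers reached 10 CPM in each library. Transcripts of 26 heart muscle markers summed to 48.2 and 16.9 CPM in the SWT libraries, against 13.2 and 406 CPM in the controls, so control replicate 2 stood apart. Of the defining heart genes, MYH6 had 27 and 2 counts in the SWT libraries and 0 and 952 in the controls. Libraries also differed along GC content. Taking the 6324 genes whose log2 CPM averaged over 5, the Spearman correlation with GC content was -0.40 for SWT minus control, -0.48 for control replicate 2 minus 1 and 0.38 for SWT replicate 2 minus 1, and genes are not independent replicates. For the subunit genes and the list medians, values with a library left out are given beside those of all 4 libraries. A fit that leaves 1 library in a group takes its spread from the other group. Its p-values therefore do not measure the spread in the group with the lone library.

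FOSL1 carried most of the FOS family signal. FOSL1, whose product FRA-1 pairs with JUN proteins, had 141 and 143 CPM in the SWT libraries, against 104 and 138 CPM in the controls. Both SWT libraries lay above both controls, but control replicate 2 lay close under them and only control replicate 1 was far below. The means were 142 ± 1.36 CPM with SWT and 121 ± 23.9 CPM in control (SD, n = 2 each). The log2 fold change was 0.24 (SE 0.09) with an edgeR adjusted p of 0.838, so the difference did not pass. Leaving out control replicate 1 brought it to 0.042, whereas leaving out control replicate 2 brought it to 0.45. In bulk RNA, more cells holding a transcript and more transcript per cell cannot be told apart. Exact Poisson intervals for FOSL1 were 98.1 to 110 CPM in control replicate 1 and 130 to 145 CPM in control replicate 2, so the controls differed by more than counting error. Of 3085 tested genes with a mean CPM within a factor of 2 of that of FOSL1, 0.357% differed more between the controls on the log2 scale.

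FOSL2, which encodes FRA-2, was the steadiest of the subunit genes. It had 74.2 and 73.9 CPM in the SWT libraries, against 71.6 and 73.2 CPM in the controls. All 4 values lay within a few CPM of each other, and both SWT libraries were marginally above both controls. Its log2 fold change was 0.032 (SE 0.07, 95% interval -0.11 to 0.17), with an edgeR adjusted p of 0.972, and with each library left out it ran from 0.017 to 0.049. The antisense gene FLJ31356, which overlaps FOSL2, had at most 1 count in a library.

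FOS and FOSB, the family's rapid responders, were close to the limit of detection in every library at 6 h. FOS had 7 and 9 counts in the SWT libraries, against 5 and 7 in the controls. In CPM these were 0.695 and 0.773 with SWT and 0.431 and 0.708 in control, with groups that overlapped and exact Poisson intervals from 0.140 at the lowest to 1.47 at the highest. FOSB had 2 and 1 counts in the SWT libraries and 5 and 5 in the controls. Its SWT values of 0.199 and 0.0858 CPM lay below the control values of 0.431 and 0.506 CPM, but the exact Poisson intervals overlapped, reaching 0.717 and 0.478 CPM with SWT and starting at 0.140 and 0.164 CPM in control. No fold change is given for either gene, and a difference was not detectable at this depth. FOSB overlaps ERCC1 on the opposite strand, a gene with 922 to 1156 counts per library, and because the strand setting of the counting was not given, so few FOSB reads cannot be told from reads of ERCC1.

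**Figure D1:**
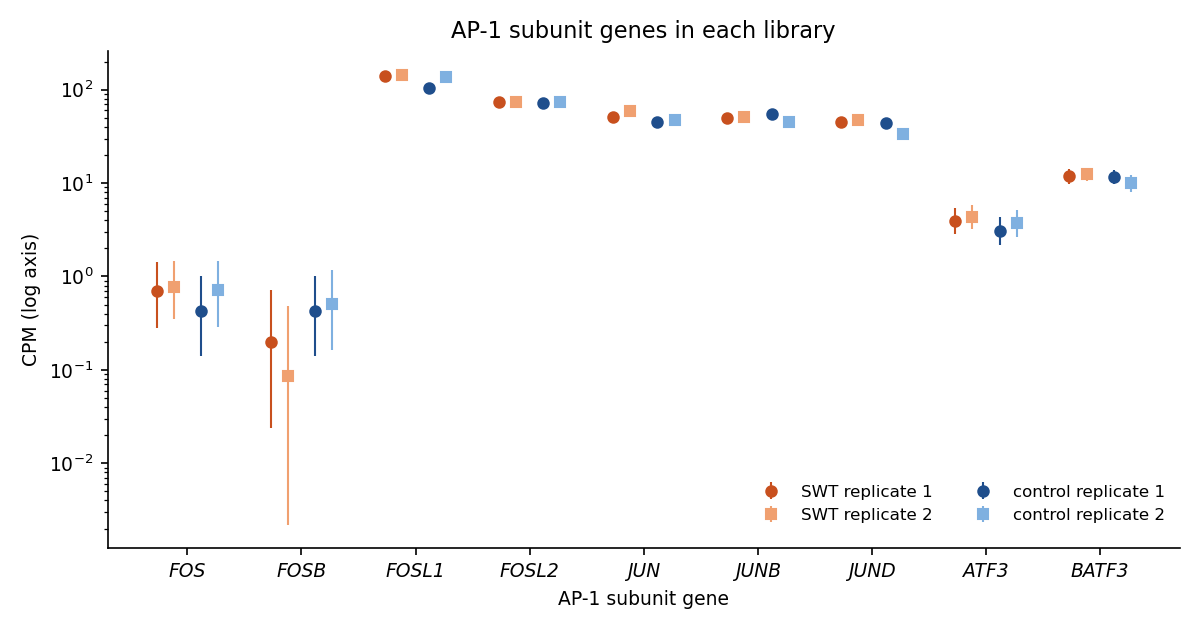
Level of each AP-1 subunit gene in each library, in CPM on a log axis, with SWT libraries in orange left of the controls in blue and bars for exact 95% Poisson intervals. FOSL1 is highest at 104 to 143 CPM, FOSL2 and the JUN genes follow, and FOS and FOSB stay under 1 CPM in all 4 libraries.

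The start regions of the JUN genes, ATF3 and FOS are shown because the short elements in them differ between members. Sequences are from RefSeq on GRCh38.p14, which holds start regions for 7 of the 9 genes, in 8 windows, and FOSL1 and BATF3 were not in that table. Each window is the 250 bases before the start. It was searched on both strands for the AP-1 site TGANTCA, the TATA box as TATAAA, the CCAAT box and the CArG box bound by serum response factor. The related CRE-like site TGACNTCA was searched only as written, and its reverse complement was not. Capitals mark matches. JUN has the CRE-like site to which its own product is known to bind together with ATF2, and the 30 bases around it are chr1:58784096-58784125 on the minus strand. GENCODE starts the single JUN transcript and the FOS gene upstream of the 30 bases printed for each. It also starts FOSL2 upstream of its window. The 30 bases around the CRE-like site of the upstream ATF3 start are chr1:212565273-212565302 on the plus strand, and those around the TATAAA of FOS are chr14:75278783-75278812 on the plus strand. JUNB is shown from chr19:12791236-12791485 on the plus strand and JUND from chr19:18281623-18281872 on the minus strand.
JUN: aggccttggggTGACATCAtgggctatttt
ATF3: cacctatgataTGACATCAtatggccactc
FOS: taaaacgcttgtTATAAAagcagtggctgc
JUNB: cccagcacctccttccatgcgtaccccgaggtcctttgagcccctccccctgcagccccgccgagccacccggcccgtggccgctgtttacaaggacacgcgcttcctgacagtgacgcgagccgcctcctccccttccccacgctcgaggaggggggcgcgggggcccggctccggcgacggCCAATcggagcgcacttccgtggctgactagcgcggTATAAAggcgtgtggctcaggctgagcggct
JUND: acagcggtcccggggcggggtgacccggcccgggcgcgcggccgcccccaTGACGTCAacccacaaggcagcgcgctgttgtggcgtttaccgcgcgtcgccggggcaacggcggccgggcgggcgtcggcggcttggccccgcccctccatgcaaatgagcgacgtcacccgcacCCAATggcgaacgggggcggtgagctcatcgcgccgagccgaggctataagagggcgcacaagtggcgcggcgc

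In the orientation searched, the CRE-like site was found in 3 of the 8 windows, those of JUN, JUND and the upstream ATF3 start. The same search matched 4.23% of 35116 windows of the same length. TATAAA was found in 4 windows (FOS, FOSB, JUNB and the downstream ATF3 start) and in 10.7% of all windows. It began 33, 30 and 31 bases before the start in FOS, FOSB and JUNB, but 230 bases before it in ATF3. CCAAT was found in 4 windows (JUN, JUNB, JUND and the upstream ATF3 start) and in 32% of all windows. The AP-1 site TGANTCA and the CArG box were in 0 of the 8 windows, against 6.57% and 1.16% of all windows. Matches are of letters only, and a longer reach upstream was not searched.

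JUN was the subunit gene with the smallest p. It encodes c-Jun, the partner shared by most AP-1 pairs, and had 51.1 and 59.7 CPM in the SWT libraries, against 45.2 and 47.8 CPM in the controls. Both SWT libraries lay above both controls, with SWT replicate 2 the highest. Exact Poisson intervals were 46.8 to 55.7 and 55.3 to 64.3 CPM for SWT replicates 1 and 2. In control they were 41.4 to 49.2 and 43.6 to 52.4 CPM. That of SWT replicate 2 lay above both control intervals, while that of SWT replicate 1 overlapped all the others. The means were 55.4 ± 6.03 CPM with SWT and 46.5 ± 1.91 CPM in control (SD, n = 2 each). This gave a log2 fold change of 0.26 (SE 0.08), a 1.20-fold difference with a 95% interval of 1.06 to 1.35, and the edgeR adjusted p was 0.838. Leaving out SWT replicate 2 gave 0.14 and leaving out SWT replicate 1 gave 0.36. With control replicate 2 left out it was 0.30.

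JUND, a JUN protein that is usually present in resting cells, had 44.6 and 47.8 CPM in the SWT libraries, against 44.2 and 33.6 CPM in the controls. Control replicate 1 lay just under the SWT libraries, and control replicate 2 alone was low. Over the 4 libraries the log2 fold change was 0.24 (SE 0.10), with an edgeR adjusted p of 0.843. It dropped to 0.067 with control replicate 2 left out, and with control replicate 1 left out it was 0.46. The exact Poisson intervals of the controls, 40.5 to 48.2 CPM for replicate 1 and 30.1 to 37.4 CPM for replicate 2, did not overlap. Of 4634 tested genes within a factor of 2 of the mean CPM of JUND, 0.906% differed more between the controls.

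JUNB, which can pair with FOS proteins in place of c-Jun, had 49.2 and 51.3 CPM in the SWT libraries, against 54.5 and 44.7 CPM in the controls. Both SWT values lay between the control values. The fitted log2 fold change was 0.014 (SE 0.09, 95% interval -0.17 to 0.20), with an edgeR adjusted p of 0.996. It turned to -0.11 with control replicate 2 left out and to -0.014 with SWT replicate 2 left out, and leaving out control replicate 1 gave 0.17. JUNB overlaps HOOK2 on the opposite strand, which had 106 to 146 counts per library.

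ATF3, a stress-induced factor that pairs with JUN proteins, and BATF3, a small factor that lacks an activation domain, were lower in level. ATF3 had 3.97 and 4.38 CPM in the SWT libraries, against 3.10 and 3.74 CPM in the controls. Both SWT libraries lay above both controls, on 36 to 51 counts per library. A log2 fold change of 0.30 (SE 0.23) was the highest among the 7 tested genes and the least precise, with an edgeR adjusted p of 0.91 and a 95% interval of -0.18 to 0.78. With control replicate 1 left out it was 0.16, and with control replicate 2 left out 0.43. BATF3 had 11.8 and 12.4 CPM in the SWT libraries, against 11.5 and 9.91 CPM in the controls. Control replicate 1 lay just under the SWT libraries and control replicate 2 was lower. Its log2 fold change was 0.17 (SE 0.14), with an edgeR adjusted p of 0.912, and leaving out control replicate 2 gave 0.075, against 0.29 with control replicate 1 left out.

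**Figure D2:**
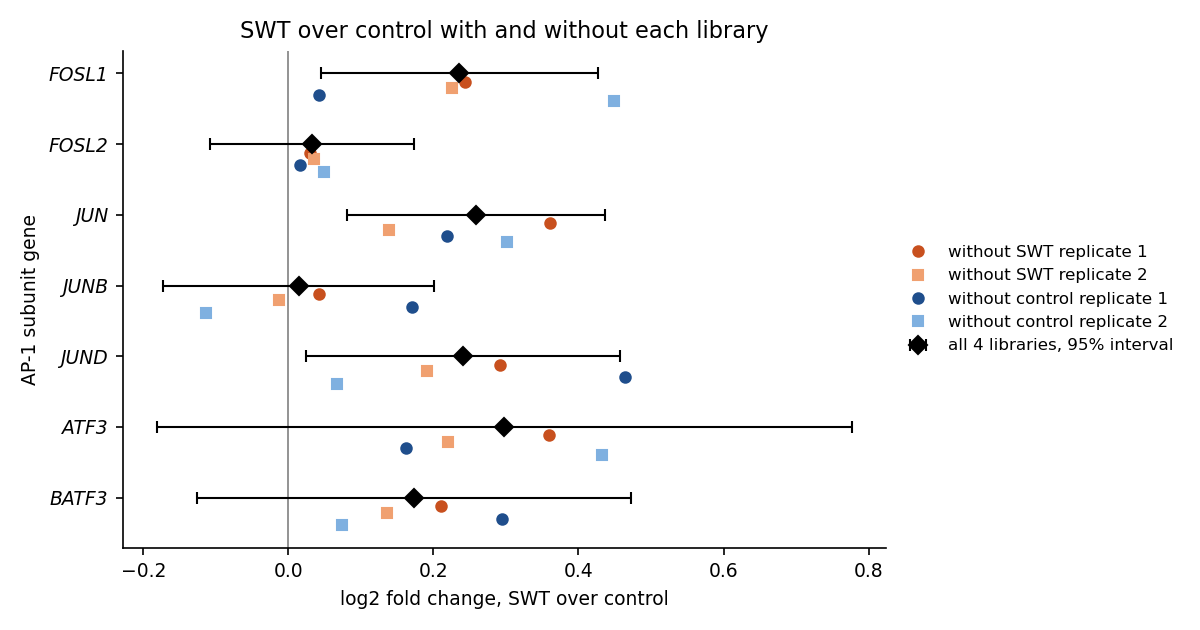
Log2 fold change of SWT over control for the 7 tested subunit genes, with diamonds and 95% intervals for the fit to all 4 libraries and coloured points for fits without 1 library. FOSL1 stands at 0.24 and moves to 0.042 without control replicate 1, while JUND stands at 0.24 and moves to 0.067 without control replicate 2.

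Set per length, the order of levels put FOSL1 far ahead of all other subunits. CPM were divided by the longest GENCODE transcript of each gene in kb. FOSL1 averaged 78.6 ± 11.0 CPM per kb (SD over the 4 libraries), JUNB 27.4 ± 2.24, JUND 22.8 ± 3.32, JUN 14.4 ± 1.78 and FOSL2 10.9 ± 0.175 CPM per kb. BATF3 followed at 4.85 ± 0.458, ATF3 at 1.81 ± 0.254, FOS at 0.302 ± 0.0700 and FOSB at 0.0809 ± 0.0520 CPM per kb. The ranges over the 4 libraries overlapped only between JUNB and JUND. All other neighbours in this order were apart in range. The order depends on the transcript length used: with the mean length over annotated transcripts, a choice added after the data were seen, JUND averaged 36.0 ± 5.24 and FOSL2 21.2 ± 0.334 CPM per kb, which put JUND above JUNB and FOSL2 above JUN, with FOSL1 still first.

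Within the FOS family, FOSL1 held 88.1% and 88.2% of length-divided counts in the SWT libraries, against 85.0% and 87.9% in the controls. FOSL2 held 11.6% and 11.4% with SWT, against 14.6% and 11.6% in control, and FOS and FOSB together filled under 1% everywhere. The difference in the FOSL1 share was 1.71 percentage points, and the exact permutation p was 0.333, the smallest that 2 libraries against 2 allow. It was 0.268 points without control replicate 1, the library with the low FOSL1 share. Of raw counts, FOSL1 took 65.2% and 65.6% in the SWT libraries (95% exact Clopper-Pearson intervals 63.2% to 67.2% and 63.7% to 67.4%), and 58.9% (56.7% to 61.0%) and 64.9% (62.8% to 66.9%) in the controls.

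Within the JUN family, no subunit held a majority. JUNB took 41.4% and 39.8% of length-divided counts in the SWT libraries, against 45.1% and 43.8% in the controls, a difference of -3.83 percentage points that leaving out any 1 library kept between -4.58 and -3.07. Both SWT libraries lay below both controls, with an exact permutation p of 0.333. JUND took 36.6% and 36.3% with SWT, against 35.7% and 32.1% in control, and JUN 22.1% and 23.9% with SWT, against 19.2% and 24.1% in control. The JUN shares overlapped between the groups, and the difference of 1.31 points turned to -1.13 without control replicate 1. Here too the mean transcript length turned the ranking of JUNB over JUND: JUND then averaged 47.5% with SWT and 44.7% in control, and JUNB 33.5% with SWT and 37.2% in control.

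**Figure D3:**
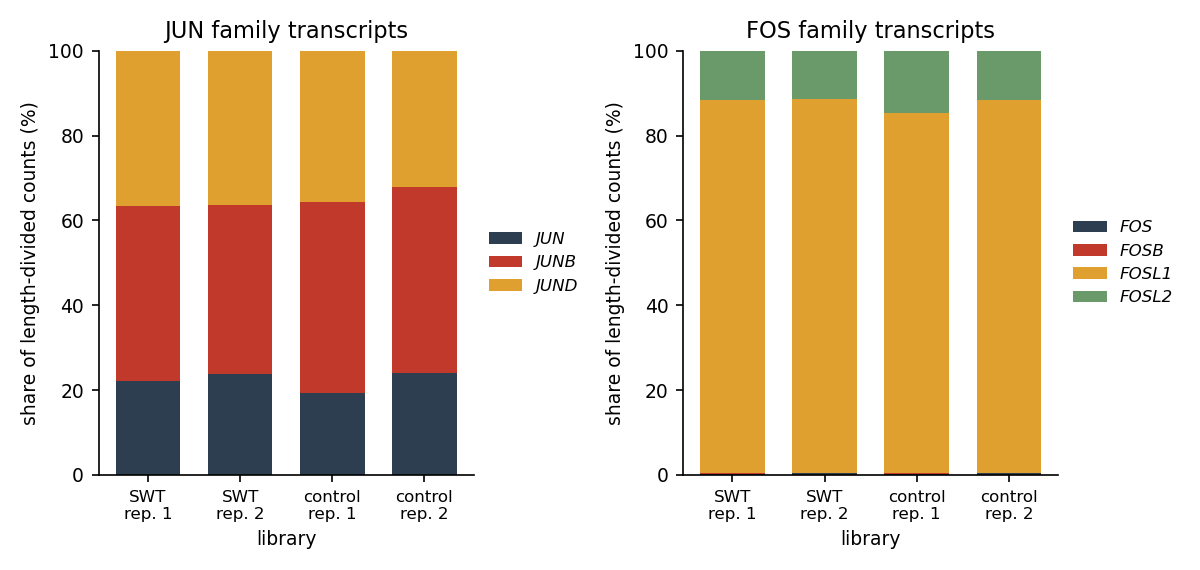
Share of each gene in the length-divided counts of its family, in percent, for each library, with the SWT libraries left of the controls. FOSL1 fills 85.0% to 88.2% of the FOS family, with FOS and FOSB too thin to see, and JUNB, JUND and JUN share the JUN family.

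Taken as a group, the subunit genes leaned towards SWT by value, and none passed the test. Because the genes were chosen with earlier results of these data known, the shares below describe them and test nothing. All 7 tested genes had a log2 fold change above 0, as did 49.7% of the 12399 genes tested, and their median was 0.24, against -0.0008 over all genes tested. By edgeR's adjusted p at 0.05, 0 subunit genes were called, and the same was true of 0% of all genes tested in each direction. An unadjusted p under 0.05 was reached by 3 of the 7 (JUN, FOSL1 and JUND), against 5.77% of all tested genes in either direction and 2.81% in the higher direction. That count was 0 in DESeq2, 1 in edgeR without SWT replicate 2 (FOSL1), and 2 in edgeR without control replicate 1 (JUN and JUND), without control replicate 2 (FOSL1 and JUN) or with robust empirical Bayes (JUN and JUND). In limma on the deposited log2 values, JUN stayed under 0.05 (unadjusted p = 0.0494), but FOSL1 (0.141) and JUND (0.133) did not. FOSB, close to the limit of detection, was under 0.05 there in the lower direction (0.0267). Both SWT libraries stood above both controls for 6 of the 7, all but JUNB, against 17.3% of all tested genes. For the 7 genes the 95% interval of the log2 fold change stayed within 1 of 0, and for 6 of them within 0.5.

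The lean moved with different libraries for different genes. The log2 fold change was lowest without control replicate 1 for FOSL1, FOSL2 and ATF3. It was lowest without control replicate 2 for JUND, JUNB and BATF3, and without SWT replicate 2 for JUN. Between the controls, replicate 2 minus replicate 1, log2 CPM differed by 0.41 for FOSL1, 0.26 for ATF3, 0.083 for JUN and 0.032 for FOSL2, but by -0.39 for JUND, -0.28 for JUNB and -0.22 for BATF3. The median absolute difference between the controls was 0.26, beside a median log2 fold change of 0.24, while between the SWT libraries it was 0.074. Over all genes tested the same quantities were 0.11 for the controls and 0.087 for the SWT libraries. With control replicate 1 left out, the median log2 fold change of the 7 genes was 0.17, and with control replicate 2 left out it was 0.075. Leaving out an SWT library gave 0.24 for replicate 1 and 0.14 for replicate 2.

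The controls, which differed in these genes, also differed along GC content and in heart transcripts. The longest transcripts of JUND, JUNB and FOSL1 hold 69.7%, 64.9% and 60.0% GC, and those of ATF3 and BATF3 46.7% and 45.6%. With each library's trend along GC content and transcript length removed, the median log2 fold change of the 7 genes was 0.28. JUN then stood at 0.31, FOSL1 at 0.30, JUND at 0.28 and JUNB at 0.070, with edgeR adjusted p-values of 0.37, 0.602, 0.492 and 0.913. The difference between the controls went from 0.41 to 0.46 for FOSL1 and from -0.22 to -0.25 for BATF3. For JUND it went from -0.39 to -0.21, and for JUNB from -0.28 to -0.17. Control replicate 2, low in JUND, JUNB and BATF3, was also the library with 406 CPM of heart muscle transcripts, and the part of these in the differences was not tested.

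**Figure D4:**
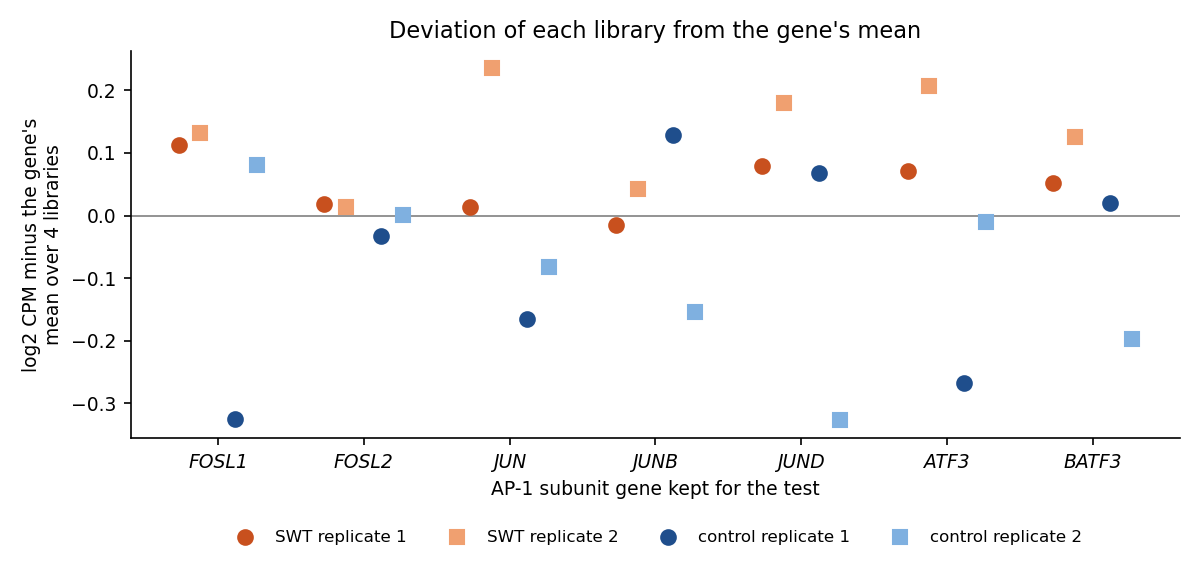
Log2 CPM of each library minus the mean of the gene over all 4 libraries, for the 7 tested subunit genes, with SWT libraries in orange and controls in blue. Control replicate 1 is the lowest library for FOSL1, FOSL2, JUN and ATF3, and control replicate 2 for JUNB, JUND and BATF3.

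In the authors' deposited table of log2 values, where differences are compressed, the 7 tested subunit genes kept the same direction. JUN stood at 9.10 and 9.17 in the SWT libraries, against 9.04 and 9.07 in the controls, and FOSL1 at 10.51 and 10.52 in the SWT libraries, against 10.30 and 10.49 in the controls. The gap to control replicate 2 was again small for FOSL1.

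Other genes of the AP-1 pathway were centred close to 0, and 0 members of these lists passed the edgeR adjusted test in either direction. Of other leucine zipper partners, 13 of 21 tested genes lay above 0, with a median log2 fold change of 0.044. CREB1, which binds CRE sites, had 66.1 and 64.4 CPM with SWT, against 57.4 and 59.7 CPM in control (log2 fold change 0.16). CEBPB and CREB5 had log2 fold changes of -0.21 and 0.28, with groups that overlapped. Leaving out control replicate 1 brought CREB5 to 0.027 and leaving out control replicate 2 to 0.54, while CEBPB was -0.088 with SWT replicate 1 left out and -0.35 with SWT replicate 2 left out. Of the kinases and phosphatases that act on AP-1, 17 of 26 lay above 0, with a median of 0.044. MAPK8, which encodes the kinase JNK1 that phosphorylates c-Jun, had 48.2 and 46.5 CPM with SWT, against 40.2 and 43.5 CPM in control (log2 fold change 0.18). RPS6KA3 and MAP3K5, both kinases, had log2 fold changes of 0.12 and 0.19.

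Factors that act on AP-1 promoters had 6 of 13 genes above 0 and a median of -0.011, and genes of AP-1 protein turnover had 8 of 12 above 0 and a median of 0.026. The MEF2A factor gene had a log2 fold change of 0.15, the SRF cofactor gene ELK4 0.09 and the MADS box factor gene MEF2C -0.13. MEF2A ran from 0.052 without control replicate 1 to 0.25 without control replicate 2, MEF2C was -0.074 with SWT replicate 1 left out, and ELK4 was 0.033 with the GC and length trend removed. Among turnover genes, CUL4A, a scaffold of ubiquitin ligases, had 158 and 163 CPM with SWT, against 144 and 144 CPM in control (log2 fold change 0.15) and the kinase gene GSK3B stood at 0.065, or at 0.022 with the GC and length trend removed. TLR3, the receptor in the series title, had 21.5 and 19.3 CPM with SWT, against 19.7 and 18.6 CPM in control (log2 fold change 0.087, edgeR adjusted p = 0.941).

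Known AP-1 target genes had 21 of 31 tested genes above 0 and a median log2 fold change of 0.039. An unadjusted edgeR p under 0.05 was reached by 8 of the 31, 6 of them higher with SWT, against 5.77% of all tested genes. At most 1 gene reached it in each related list described above. These lists were chosen with earlier results known, so the counts test nothing. CCND1, the cyclin D1 gene, had 734 and 698 CPM in the SWT libraries, against 580 and 666 CPM in the controls (log2 fold change 0.20). Both SWT libraries lay above both controls, with control replicate 1 the lowest. MMP2, a matrix protease gene, had 566 and 626 CPM with SWT, against 688 and 635 CPM in control (log2 fold change -0.15, or -0.080 with SWT replicate 1 left out). The edgeR adjusted p was 0.838 for both CCND1 and MMP2. Leaving out control replicate 2 brought CCND1 to 0.30, and leaving out control replicate 1 instead brought it to 0.11.

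Other immediate early genes had 17 of 29 tested genes above 0 and a median of 0.022, against 0.24 for the AP-1 subunits. Without control replicate 2 this order turned, with a median of 0.10 for these genes and 0.075 for the subunits. With all 4 libraries, 5 of the 29 had an unadjusted edgeR p under 0.05, 4 of them higher with SWT, against 5.77% of all tested genes. CTGF and CYR61, matrix signalling genes, had log2 fold changes of 0.36 and 0.29, with edgeR adjusted p-values of 0.769 and 0.821. KLF2, a flow-responsive factor gene, had 40.6 and 40.4 CPM with SWT, against 33.8 and 34.3 CPM in control (log2 fold change 0.25, edgeR adjusted p = 0.838). Leaving out control replicate 1 brought CTGF to 0.15 and CYR61 to 0.13. With control replicate 2 left out instead, CTGF stood at 0.59 and CYR61 at 0.47.

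The list medians moved with single libraries as well. With each library left out, they ran from 0.017 to 0.078 for the leucine zipper partners, 0.017 to 0.089 for the kinases and phosphatases, -0.029 to 0.030 for the promoter factors and 0.017 to 0.064 for the turnover genes. They ran from -0.0010 to 0.081 for the target genes and 0.013 to 0.10 for the other immediate early genes.

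**Figure D5:**
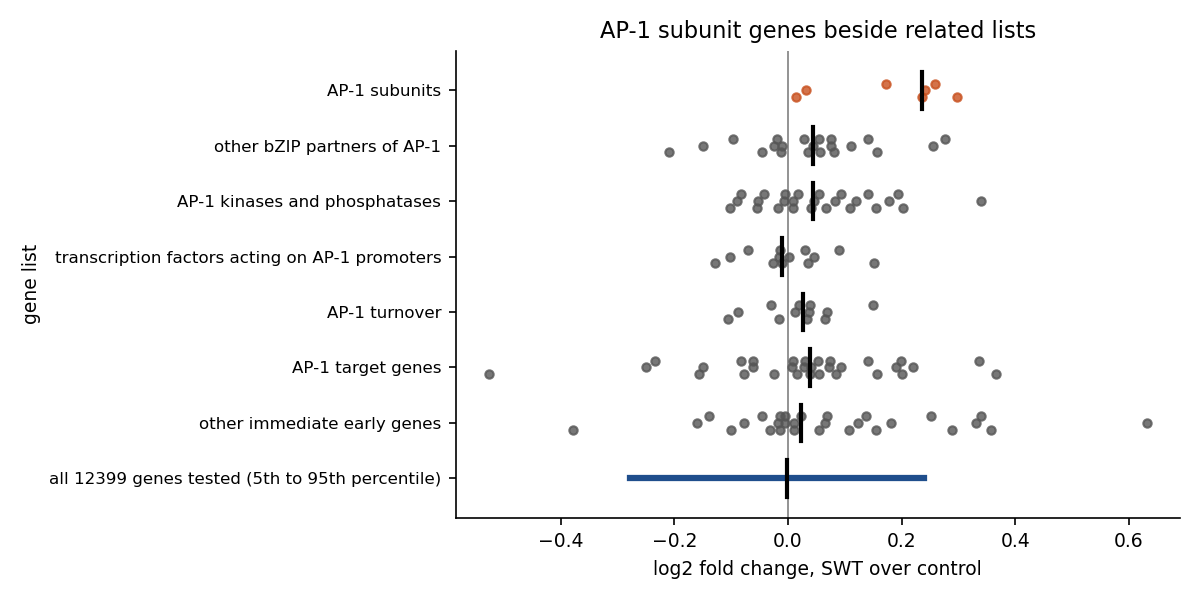
Log2 fold change of SWT over control for each tested gene (points) of the AP-1 subunits and 6 related lists, with list medians as black bars and the 5th to 95th percentile of all 12399 genes tested as a blue line. The subunit genes lie between 0.014 and 0.30, and the medians of the other lists lie between -0.011 and 0.044.

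The genes whose profile over the 4 libraries was most like that of a subunit gene differed from one subunit to the next. Likeness was the Euclidean distance between log2 CPM values centred on each gene's mean. For JUN the nearest among 4626 genes of similar level was SPRY4, at a distance of 0.053, followed by DYM and SLC12A2. SPRY4, which encodes a feedback inhibitor of receptor tyrosine kinase signalling, had 36.0 and 41.3 CPM with SWT, against 31.6 and 34.8 CPM in control. For FOSL1 the nearest among 3084 were DIAPH3, UAP1 and FAM122B, at 0.10 to 0.12, and for JUND the nearest among 4633 were ZFHX3, PHC3 and HERC1, at 0.049 to 0.097. Among the subunit genes, ATF3 was nearest to JUN (0.14) and to FOSL1 (0.14), and BATF3 to JUND (0.15), while FOSL1 and JUND were 0.57 apart. With 4 libraries, such distances describe these samples only.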

How the data were processed

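Poly(A) RNA of 2 SWT and 2 control samples was sequenced from libraries made with a strand-specific kit for mRNA, as the labels' protocols state. The authors deposited raw counts per gene symbol for 28058 genes, and a second table of log2 values that is compressed relative to the counts. Trimmomatic 0.36, FastQC 0.11.5, STAR 2.5.3a, HTSeq, DESeq2 and hg38 are named in the submitters' processing notes with no role. The counting's annotation and strand setting are not given in the sources used here. Nothing in the labels shows that replicates were separate cultures, so p-values cover the spread among these 4 samples, and that may be technical.

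Counts were tested with edgeR 4.0.16 (R 4.3.3): TMM scaling, filterByExpr, quasi-likelihood tests, and p-values adjusted by Benjamini-Hochberg over all 12399 genes that passed the filter, with a threshold of 0.05. CPM use TMM-scaled totals. SE was derived from the fold change and the F statistic, and intervals are 95%. Log2 CPM use a prior count of 2. Because the deposited log2 values are already logarithms, limma 3.58.1 was run on them as they stand. DESeq2 1.42.0, limma-voom, other scalings and filters, the replicate block, GC and length trends and leaving out each library were alternatives. Lengths, GC content and positions come from GENCODE release 29 on GRCh38, the assembly of hg38. GC content was known for 97.4% of tested genes. Python 3.11.15 was used for shares and plots.

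The subunit genes and all lists were chosen with earlier results of these data known. Named genes are the 9 subunits, TLR3, the 3 members of each related list with the smallest p (some of which are not reported here), and the 3 nearest profiles to JUN, FOSL1 and JUND. Replicate numbers gave a correlation of deviations of -0.283 between same-numbered samples.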

Additional observations from a re-analysis of the deposited data

How the results depend on the processing

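The count of 0 called genes was also found with upper-quartile scaling, DESeq2 size factors, robust empirical Bayes, a minimum mean count of 50, a threshold of 0.1, DESeq2 (116 genes at an unadjusted p under 0.05), limma-voom (721) and the deposited log2 values (847), against 715 in edgeR. It was 63 with no filter, 1 with the GC and length trend removed, 1 with the replicate number as a block and 3 with the block and the trend removed together, and leaving out each library gave 17 to 203. In those fits a lone library is assumed to vary like the other group. Subunit genes were among those called: FOSL1 and JUN without control replicate 2 (log2 fold changes 0.45 and 0.30). JUND was called without control replicate 1 (0.46). These calls rest on p-values that do not measure the spread in the group with the lone library. A crossed pairing of all 4 libraries, added after the data were seen, gave 97 called genes, FOSL1 among them (edgeR adjusted p = 0.00166). The subunit median of 0.24 was 0.28 with the block and the trend removed and 0.019 on the compressed deposited values, and 0.075 to 0.24 with each library left out. The replicate block by matching numbers gave a median of 0.24 and changed no call among the subunit genes. JUNB ran from -0.11 to 0.17 with each library left out, reversing without control replicate 2 (-0.11) and without SWT replicate 2 (-0.014), and was -0.087 between SWT replicate 2 and control replicate 1 alone. The JUN share difference ran from -1.13 to 3.75 percentage points and the FOSL1 share difference from 0.268 to 3.15 with each library left out, an alternative also added later. The cause of these shifts was not tested. Under the other alternatives on counts, the log2 fold change of FOSL1 ran from 0.23 to 0.30, of JUN from 0.25 to 0.31 and of JUND from 0.24 to 0.28. Depth limits FOS and FOSB, with at most 9 counts in a library.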
